A study of Mus musculus with 2 samples.

Results

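The Hox genes are the homeobox transcription factors of the Hoxa, Hoxb, Hoxc and Hoxd clusters, on mouse chromosomes 6, 11, 15 and 2. They were taken as every gene whose symbol is Hox, a cluster letter and a number in full, which gave 39 of the 56941 genes counted. Hox proteins give cells their identity along the head to tail axis of the embryo. Genes with the same number in different clusters are paralogues. Low numbers (anterior genes) are used in the hindbrain and neck, middle numbers (central genes) in the trunk, and high numbers (posterior genes) in the lower body, the genitals and the ends of the limbs. Adult fibroblasts and vessel cells are known to keep part of the Hox pattern of the body site they come from, and blood cells use Hox genes of their own.

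Both groups were subcutaneous tumours of MC38 in wild-type C57BL/6 mice. MC38 is a mouse cell line, labelled as colon adenocarcinoma. The cells were lentivirally transduced pools, carrying SPP1 in 1 group and the control vector in the other, and not single clones. From day 7 every mouse received intraperitoneal anti-PD1, an antibody against the T cell checkpoint receptor, at 10 mg per kg in 2 injections per week for 2 weeks. The tumour of 1 mouse per group was dissociated and profiled by droplet single-cell RNA sequencing, so tumour, host, mouse and library cannot be told apart in any difference between groups. With 1 library per group there is no test. Intervals are 95% intervals that cover counting error alone.

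A total of 164247003 unique molecular identifiers (UMIs) were counted in 14317 barcodes of the library labelled vector, and 164599332 in 14029 barcodes of the library labelled SPP1. Filters on depth and on doublets left 13970 and 13599 cells. The libraries shared 93 barcodes, of which 90 and 92 were among the kept cells. Without them 20 Hox genes were on in the tumour compartment and 0 were called between the libraries, the same counts as with them. Mouse Spp1 stood at 284 CPM (UMIs of a gene for every 1000000 UMIs of the cells) over all kept cells of the library labelled vector and at 249 in the library labelled SPP1, and at 134 and 127 in the tumour compartment. In macrophage/monocyte-like cells it stood at 2276 and 2644 CPM and in fibroblast-like cells at 14021 and 4302. Over all cells and in the compartment, endogenous Spp1 was thus lower in the library labelled SPP1, and a transgene of another sequence would not be seen here. Whether the labels are on the right libraries was not settled, so the libraries are named by their labels. Below, where a pair of values is given, the first is of the library labelled vector and the second of the library labelled SPP1.

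Cells were clustered without any Hox gene among the variable genes, and classes were named from marker lists. The tumour compartment held 10329 and 10264 cells (73.9% and 75.5% of kept cells), with medians of 12371 and 11957 UMIs per cell. It is the group of clusters that express Hmga2, Sox9 and Tafa1, which summed to 2406 and 2705 CPM. Markers of an epithelial colon tumour were nearly absent from it: the 9 markers summed to 2.36 and 2.07 CPM, Cldn3, Cldn4 and Cdx2 had no UMI, Epcam stood at 0.014 and 0.0070 CPM, and Cdh1 was the highest at 1.75 and 1.45. The label of colon adenocarcinoma cells was thus not matched by those markers, and the cells are called by their leading genes as the tumour compartment. The compartment also held some fibroblast markers. Of 12 on that list 4 and 3 stood at 10 CPM or more, led by Dcn (864 and 1121) and Cd34 (395 and 399). The list summed to 1331 and 1591 CPM, against 8367 and 8181 in the class called fibroblast-like. Host classes were macrophage/monocyte-like (924 and 744 cells), dendritic cell-like (44 and 24), T and NK-like (186 and 119), fibroblast-like (40 and 42), endothelial-like (18 and 21) and pericyte or smooth muscle-like (4 and 7).

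The promoters of 4 genes are shown because the results turn on them: Hoxd8 and Hoxa9 were the leading Hox genes of the tumour compartment, Hoxb4 was above background in fibroblast-like, endothelial-like and macrophage/monocyte-like cells, and Hoxd9 had no UMI in the tumour compartment although no other gene model covers it. Each is the 250 bases before the gene's start in RefSeq (GRCm38.p6), read along the gene's strand, with every CG in capitals. CG pairs mark the CpG islands at which Polycomb and Trithorax proteins hold Hox genes off or on. The windows are Hoxd8 at chr2:74704365-74704614 (plus strand), Hoxa9 at chr6:52227371-52227620 (minus strand), Hoxb4 at chr11:96318017-96318266 (plus strand) and Hoxd9 at chr2:74697513-74697762 (plus strand).
Hoxd8: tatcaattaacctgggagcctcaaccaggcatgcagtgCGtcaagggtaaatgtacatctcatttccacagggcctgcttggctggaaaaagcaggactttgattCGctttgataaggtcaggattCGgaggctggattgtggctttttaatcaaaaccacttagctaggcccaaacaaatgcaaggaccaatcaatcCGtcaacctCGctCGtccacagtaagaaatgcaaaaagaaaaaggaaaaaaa
Hoxa9: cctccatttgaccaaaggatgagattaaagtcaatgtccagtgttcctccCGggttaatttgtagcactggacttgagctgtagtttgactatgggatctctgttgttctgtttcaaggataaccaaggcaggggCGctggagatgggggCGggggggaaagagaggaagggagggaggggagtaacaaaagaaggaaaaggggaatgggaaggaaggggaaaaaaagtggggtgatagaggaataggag
Hoxb4: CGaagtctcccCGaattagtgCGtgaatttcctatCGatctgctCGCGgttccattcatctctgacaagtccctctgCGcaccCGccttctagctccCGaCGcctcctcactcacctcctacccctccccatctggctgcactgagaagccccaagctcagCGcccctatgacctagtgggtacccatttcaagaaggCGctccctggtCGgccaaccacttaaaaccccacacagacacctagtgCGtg
Hoxd9: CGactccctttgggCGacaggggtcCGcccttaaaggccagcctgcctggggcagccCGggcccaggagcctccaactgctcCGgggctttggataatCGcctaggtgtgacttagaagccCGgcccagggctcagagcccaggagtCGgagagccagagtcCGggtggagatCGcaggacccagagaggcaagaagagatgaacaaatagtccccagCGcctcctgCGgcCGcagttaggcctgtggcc
The motif counted was CG, which reads the same on both strands. Hoxd8 held 6 and Hoxa9 held 3, and 50.4% and 71.0% of all 32851 RefSeq promoter windows hold as many. Hoxb4 held 14 and Hoxd9 held 13, which 29.4% and 31.5% of windows reach. The median was 6 over all windows and 12.5 over the 24 Hox windows found, which belonged to 22 Hox genes. Hoxb4 and Hoxd9 thus held more CG than the 2 leading tumour genes, as a description of these windows alone.

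In the tumour compartment 20 of the 39 Hox genes stood at 1 CPM or more in both libraries, which is the level called on here. Over all genes 22.6% were on, and 51.4% of protein-coding genes. Among the on genes were Hoxa7, Hoxa9, Hoxa10, Hoxa11, Hoxa13, the run from Hoxb2 to Hoxb9, Hoxc4, Hoxc5, Hoxc11, Hoxc13, Hoxd8 and Hoxd10. By position, 9 of 15 central genes (groups 4 to 8) and 8 of 16 posterior genes (groups 9 to 13) were on, and group 12 had no gene on. The central genes not on were Hoxa4, Hoxa5, Hoxa6, Hoxc6, Hoxc8 and Hoxd4. Each lies wholly inside another gene's model and could not be read, as set out below. Every central gene that could be read was thus on. Among posterior genes only Hoxc9 lies that way. By cluster, 8 of 10 Hoxb, 4 of 9 Hoxc and 2 of 9 Hoxd genes were on, where Hoxc6, Hoxc8, Hoxc9 and Hoxd4 are among those that could not be read. The compartment therefore carried transcripts from the anterior to the posterior end of the Hox series and from every cluster.

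**Figure D1:**
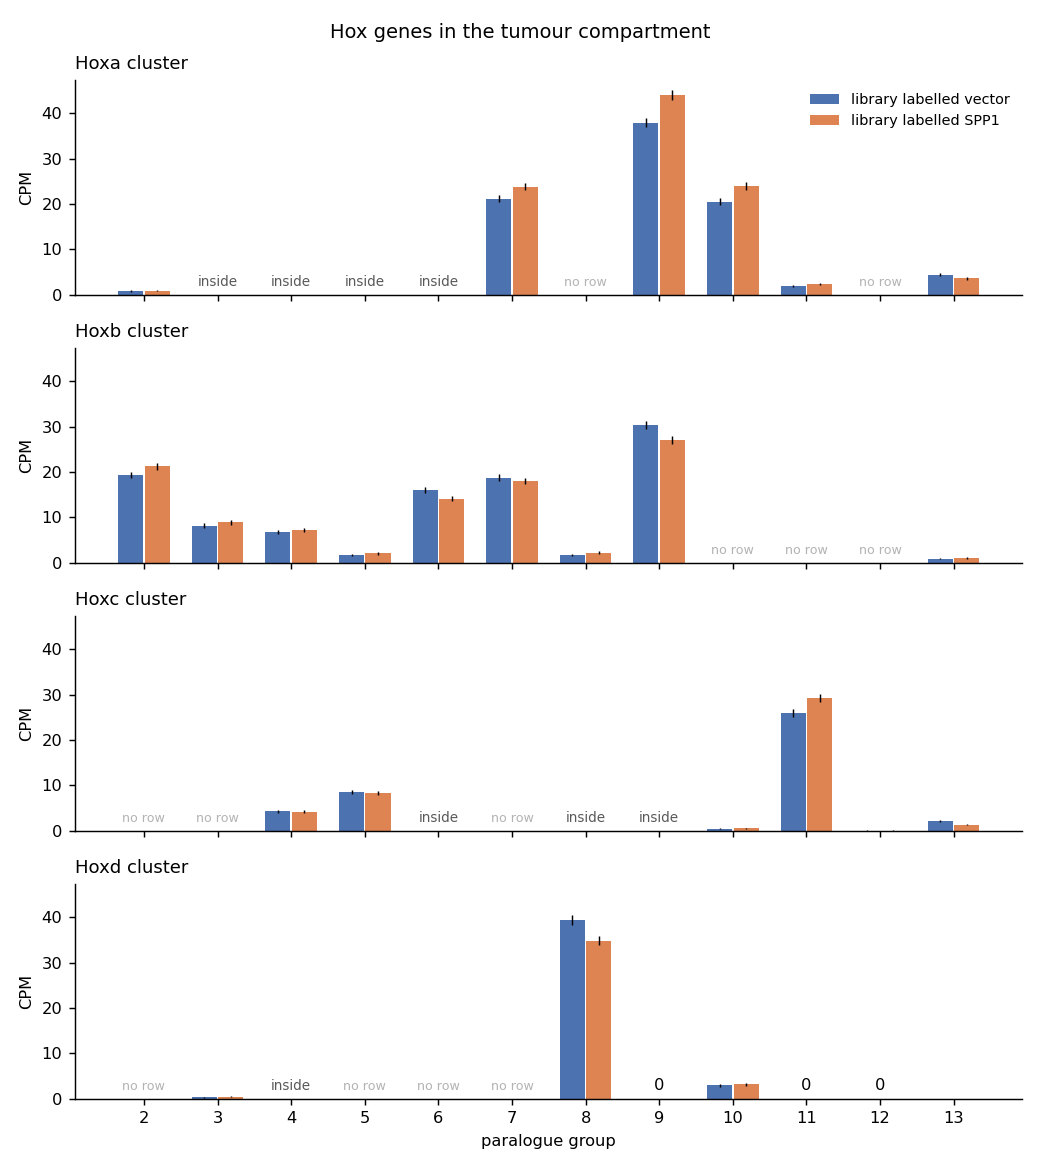
Level of each Hox gene of groups 2 to 13 in the tumour compartment in CPM, 1 panel per cluster, by paralogue group and library; bars are values and lines 95% Poisson intervals. "Inside" marks a gene whose model lies wholly within another gene's, "0" a gene with no UMI and "no row" a group without a gene in that cluster. Hoxd8, Hoxa9, Hoxb9 and Hoxc11 are the tallest bars in both libraries.

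Posterior genes gave the largest part of the Hox UMIs counted, although several central genes could not be read. Hoxa9, a factor of blood stem cells that is also active in leukaemia, stood at 37.9 CPM (36.9 to 38.9) and 44.0 (43.0 to 45.2). Its paralogue Hoxb9 stood at 30.4 and 27.0 CPM. Hoxa10, which patterns the uterus, stood at 20.5 and 24.0, and Hoxc11, a gene of the hindlimb and sacral region, at 26.0 and 29.2. The most distal genes were on at lower levels. Hoxa13, needed for the hands and feet and the hindgut and genital outlets, stood at 4.39 and 3.60 CPM. Hoxc13, a gene of hair and nail, stood at 2.13 and 1.37, and Hoxa11, used in the forearm and the uterus, at 1.91 and 2.34. Hoxd10, a hindlimb and lumbar spinal cord gene, stood at 2.96 and 3.18. Hoxb13, a prostate and tail-end gene, lay across the threshold at 0.890 and 1.05 CPM, and Hoxd13, which shapes the digits, had 2 UMIs and 1 UMI.

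Central genes were close behind. Hoxd8 was the highest of all in the library labelled vector at 39.4 CPM (38.4 to 40.5) and second in the library labelled SPP1 at 34.8 (33.9 to 35.8). Hoxa7 followed with 21.2 and 23.8, Hoxb7 with 18.8 and 18.0 and Hoxb6 with 16.0 and 14.1. The 4th and 5th groups were lower: Hoxc5 8.55 and 8.27, Hoxb4 6.83 and 7.22, Hoxc4 4.30 and 4.23, Hoxb5 1.78 and 2.03 CPM. Hoxb8 stood at 1.75 and 2.22. Among anterior genes Hoxb2, a hindbrain gene, reached 19.3 and 21.3 CPM and Hoxb3 8.18 and 8.88. Hoxa2 (0.779 and 0.880), Hoxd3 (0.292 and 0.401) and Hoxc10 (0.445 and 0.50) stayed under 1 CPM, and Hoxb1 and Hoxc12 had at most 5 UMIs in a library.

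Longer genes can gather more UMIs, so levels were also set per kb of exonic length. On that scale Hoxd8 stood at 14.4 and 12.7 CPM per kb, Hoxc11 at 12.9 and 14.5, Hoxb7 at 12.2 and 11.7 and Hoxb9 at 11.8 and 10.5. These 4 genes led in both libraries, Hoxd8 before Hoxc11 in the library labelled vector and after it in the library labelled SPP1. Hoxa9 dropped to the 7th and 6th place with 6.80 and 7.89 CPM per kb. Whether these libraries count 3′ ends only, for which length would not matter, is not given in the sources used here.

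Summed over the 39 genes, the compartment held 277 CPM of Hox transcripts (274 to 280) and 285 (282 to 288), from 39838 and 40505 UMIs. Posterior genes made up 46.0% and 47.8% of them, central genes 42.8% and 40.2% and anterior genes 11.1% and 11.9%. These are shares of the UMIs counted. Genes wholly inside another gene's model gave none and could not be read. They are the central Hoxa4, Hoxa5, Hoxa6, Hoxc6, Hoxc8 and Hoxd4, the anterior Hoxa3 and the posterior Hoxc9. Whether posterior genes truly exceed central genes is therefore not settled. Group 9 alone gave 24.7% and 24.9%, group 8 14.9% and 13%, group 7 14.4% and 14.7%, group 11 10.1% and 11.1%, group 10 8.62% and 9.71% and group 2 7.25% and 7.78%. Group 13 gave 2.68% and 2.11% and group 12 0.0075% and 0.0123%. The Hoxb cluster gave 37.5% and 35.7%, Hoxa 32.1% and 35.5%, Hoxc 15% and 15.3% and Hoxd 15.4% and 13.5%. The order of paralogue groups named here was the same in both libraries except that groups 7 and 8 changed places.

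Hox genes listed at 0 need care, because 12 of the 39 had no UMI in the compartment. For 8 of them (Hoxa3, Hoxa4, Hoxa5, Hoxa6, Hoxc6, Hoxc8, Hoxc9 and Hoxd4) the whole gene lies within the span of another gene on the same strand in GENCODE vM21: Gm28308 or Hoxa3, Hoxc5, and Hoxd3. Among all protein-coding genes placed that way 375 of 380 (98.7%) had no UMI in any barcode of either library. The same held for 3104 of 19970 (15.5%) of those that overlap no gene. So a 0 of these 8 genes carries no reading of their expression. The model of Hoxc5 spans Hoxc6, Hoxc8 and Hoxc9, so the level of Hoxc5 is uncertain too. Hoxd11 has 73.9% of its exonic bases inside the span of Gm28309 and Hoxc10 66.1% inside that of Hoxc5. Hoxd3 has 87.5%, Hoxd10 49.8% and Hoxa2 46.9% inside the spans of neighbours. The levels of these genes are therefore uncertain. Hoxd1, Hoxd9 and Hoxd12 overlap nothing, and for them 0 UMIs allow at most 0.0209 and 0.0211 CPM (3 counts). The annotation release used by the submitters is not given in the sources used here, so the overlaps are those of vM21.

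Host cells were compared with the compartment through 3 reference genes of the compartment, Hmga2, Sox9 and Tafa1. Their level in a host class, as a percentage of the compartment's, is what that class shows for transcripts that mark tumour cells. It was 2.82 to 19.8% and 2.41 to 15.6% in fibroblast-like cells, 0.923 to 4.26% and 1.88 to 5.78% in endothelial-like cells, and 2.94 to 3.80% and 3.63 to 4.86% in macrophage/monocyte-like cells. Host clusters that held these 3 genes at 25% or more of the compartment's level had been set aside. These percentages were therefore limited in part by that rule, which used no Hox gene, and may be low as a background for Hox genes. A Hox gene was counted as above this background where the lower limit of its own percentage exceeded the highest reference gene in both libraries. Of the 24 Hox genes with at least 20 UMIs in the compartment over both libraries, 4 were above in fibroblast-like cells (16.7%, against 38.9% of all genes tested), 7 in endothelial-like cells (29.2%, against 37.0%) and 2 in macrophage/monocyte-like cells (8.33%, against 74.5%). No Hox gene was above in dendritic cell-like (39.2% of all genes), T and NK-like (50.0%) or pericyte or smooth muscle-like cells (11.8%). The last class could hardly show one, since the compartment's own level would have given at most 0.708 and 1.88 UMIs of a Hox gene. Those that were above came from groups 2 to 8, and 0 of the 10 posterior genes so tested passed in both libraries in a host class. Some posterior genes could give few UMIs in the small classes. At the compartment's level Hoxa11 would have given 0.884 and 0.919 in fibroblast-like and 0.246 and 0.374 in endothelial-like cells. Hoxa13 would have given 2.03 and 1.42 in the first and 0.564 and 0.577 in the second. For such genes the lack of a pass there is not a reading of their expression. In 1 library Hoxa9 passed in fibroblast-like cells, and Hoxc10 and Hoxd10, with 1 UMI each, in endothelial-like cells. The 24 genes entered through their level in the compartment, so these counts are a description, and Hoxd9 could not be among them.

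**Figure D2:**
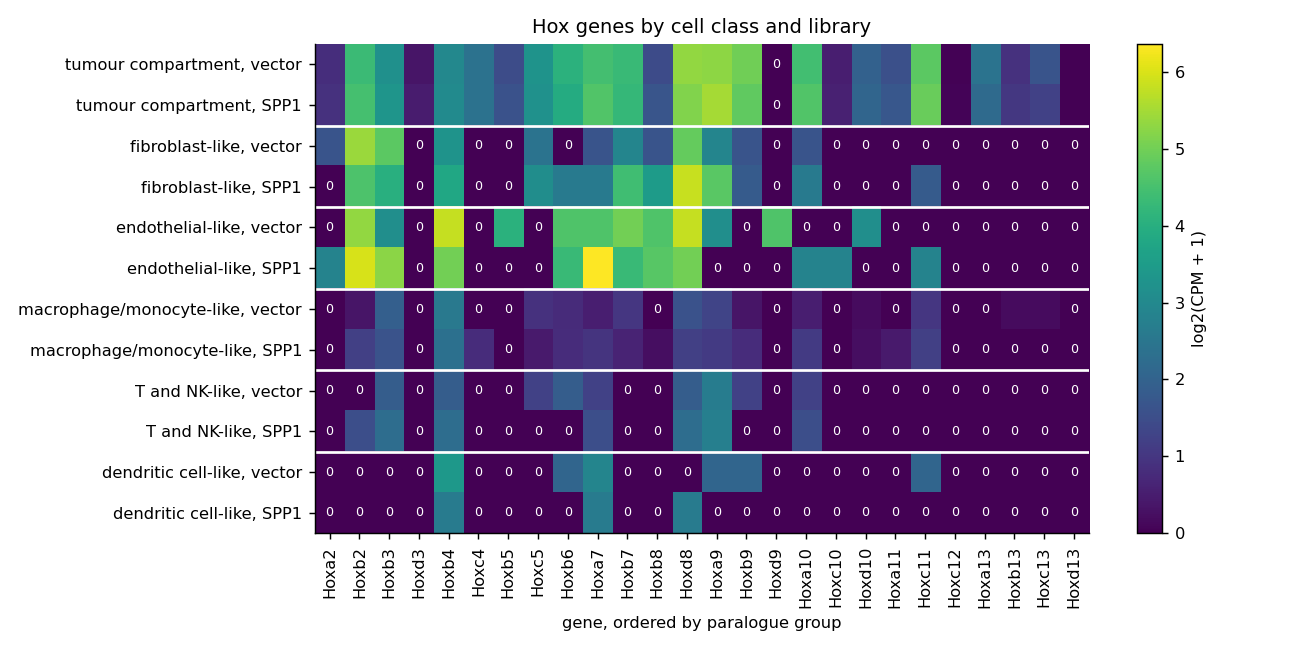
Level of each Hox gene of groups 2 to 13 with a UMI in a plotted class, as log2(CPM + 1) by colour, with genes in order of paralogue group and 1 row per class and library. White 0 marks no UMI. The 2 compartment rows are filled to group 13, while the brightest cells of the fibroblast-like and endothelial-like rows lie between Hoxb2 and Hoxd8, with zeros such as Hoxc4 among them.

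In fibroblast-like cells the anterior and central genes Hoxb2, Hoxb3, Hoxb4 and Hoxd8 were above background in both libraries. Summed Hox transcripts were 134 CPM (103 to 172) and 191 (150 to 239), from 62 and 75 UMIs. Hoxb2 stood at 41.1 CPM (24.7 to 64.2, 19 UMIs) and 22.9 (10.5 to 43.4, 9 UMIs), 213% and 107% of its compartment level. Hoxb3 stood at 26.0 and 15.3 CPM from 12 and 6 UMIs, 317% and 172%, and Hoxb4 at 8.65 and 12.7 from 4 and 5 UMIs, 127% and 176%. Hoxd8 stood at 28.1 CPM (13 UMIs) and 55.9 (22 UMIs), 71.3% (38 to 122) and 161% (101 to 243). Hoxb7 followed with 3 and 8 UMIs (6.49 and 20.3 CPM), Hoxb8 with 1 and 4 and Hoxc5 with 2 and 3. In the library labelled vector the intervals of Hoxb2 and Hoxb3 lay wholly above the compartment's level, and those of Hoxb4 and Hoxd8 held it. Without the 3 cells richest in Hox UMIs Hoxd8 was no longer above background and the other 3 were, and with cells thinned to 1000 UMIs none of the 4 was.

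The posterior genes that led in the compartment were low in the same cells. Hoxb9 had 1 UMI in each library, where the compartment's level would have given 14 and 10.6. Hoxc11 had 0 and 1, where it would have given 12.0 and 11.5. All posterior genes together had 5 UMIs against 59.0 at the compartment's level (8.48%) and 14 against 53.6 (26.1%). In the library labelled vector 8.48% (2.75 to 19.8%) lies within the range of the reference genes. In the library labelled SPP1 26.1% lies above that range, but its limits (14.3 to 43.8%) hold the highest reference gene at 15.6%. Of those 14 UMIs, 10 were of Hoxa9 (25.4 CPM, 57.7% of the compartment), which had 3 in the library labelled vector (6.49 CPM, 17.1%, within the reference range).

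In endothelial-like cells Hoxa7, Hoxb2, Hoxb4, Hoxb6, Hoxb7, Hoxb8 and Hoxd8 were above background in both libraries, with none from groups 3 and 5. Summed Hox transcripts were 311 CPM (222 to 424) and 331 (248 to 433), as high as in the compartment, from 40 and 53 UMIs in 18 and 21 cells. Hoxb4 stood at 54.5 and 31.2 CPM (7 and 5 UMIs), 798% and 432% of the compartment. Hoxb8 stood at 23.3 and 25 CPM (3 and 4 UMIs), 1338% and 1127%, and Hoxb2 at 38.9 and 62.5 (5 and 10 UMIs), 202% and 293%. Hoxd8 had 7 and 5 UMIs (54.5 and 31.2 CPM, 138% and 89.6%). Hoxa7 had 3 and 13 (23.3 and 81.2 CPM, 110% and 341%), the 13 coming from 8 cells. Hoxb7 had 4 and 3 UMIs, Hoxb6 3 and 3 and Hoxb3 1 and 6, the last above background in the library labelled SPP1 only. Without the 3 cells richest in Hox UMIs 5 of the 7 were above background, Hoxb6 and Hoxb7 being lost, and with cells thinned to 1000 UMIs 1 was, Hoxa7. Posterior genes together had 5 UMIs (30.5% of the compartment's level, 9.91 to 71.2%) and 3 (13.7%, 2.83 to 40.2%). The limits of the first lie above the highest reference gene, and 3 of its 5 UMIs are of Hoxd9. The limits of the second hold the reference genes' highest value.

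Hoxd9 was the one Hox gene with UMIs in host cells and none in the compartment. It had 4 UMIs in all, each in a different cell of the library labelled vector: 3 endothelial-like cells (23.3 CPM, 4.82 to 68.2) and 1 cell of a set left outside the classes. In the compartment it had 0 of 143801587 UMIs, and no cell of the library labelled SPP1 held it, where endothelial-like cells allow up to 18.7 CPM (3 counts).

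Macrophage/monocyte-like cells, the largest host class, held 17.6 CPM of Hox transcripts in each library (14.6 to 21.1 and 14.3 to 21.6), from 121 and 94 UMIs. Hoxb4, known for expanding blood stem cells, was the highest at 4.96 CPM (34 UMIs in 29 cells) and 4.13 (22 UMIs in 21 cells). That is 72.6% (50.0 to 102) and 57.2% (35.7 to 87.0) of the compartment's level, where the reference genes reached 3.80% and 4.86%. Hoxb3, its neighbour, stood at 2.77 and 2.06 CPM, 33.9% and 23.2%, and was not above background with cells thinned to 1000 UMIs, where Hoxb4 was. The genes that led in the compartment stood near the reference genes: Hoxd8 stood at 2.04 and 1.31 CPM (5.18% and 3.77%), Hoxa9 at 1.46 and 1.13 (3.85% and 2.56%) and Hoxc11 at 1.02 and 1.31. All posterior genes together had 25 UMIs, 2.86% of the compartment's level, and 26, 3.58%. Both percentages lie just under the lowest reference gene, with upper limits of 4.22% and 5.24%.

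The smaller immune classes held few Hox UMIs. T and NK-like cells had 16 and 12 (21.5 and 22.8 CPM), led by Hoxa9 with 4 and 3 UMIs, 14.2% and 12.9% of the compartment, with lower limits of 3.86% and 2.67% that lie under the reference genes. Their Hoxb3, Hoxb4 and Hoxd8 had 2 UMIs each in both libraries. Dendritic cell-like cells had 9 and 3 Hox UMIs, of which Hoxb4 had 3 and 1 and Hoxa7 2 and 1. Pericyte or smooth muscle-like cells had 3 and 13, and 6 of the 13 were Hoxa7 in 3 cells (141 CPM).

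The mix of Hox genes therefore differed between compartment and host classes in both libraries. Posterior genes were 46.0% (45.5 to 46.5) and 47.8% (47.3 to 48.3) of Hox UMIs in the compartment, but 8.06% (2.67 to 17.8) and 18.7% (10.6 to 29.3) in fibroblast-like cells. They were 12.5% (4.19 to 26.8) and 5.66% (1.18 to 15.7) in endothelial-like cells and 20.7% (13.8 to 29.0) and 27.7% (18.9 to 37.8) in macrophage/monocyte-like cells. In each of these host classes the interval lay below that of the compartment. T and NK-like cells, with 37.5% (15.2 to 64.6) and 33.3% (9.92 to 65.1), could not be told from it at this depth. Anterior genes were 53.2% and 20% in fibroblast-like, 15% and 32.1% in endothelial-like and 22.3% and 21.3% in macrophage/monocyte-like cells. Since compartment transcripts are found in host classes at the level of the reference genes, part of the posterior UMIs there stand at that level, as above.

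**Figure D3:**
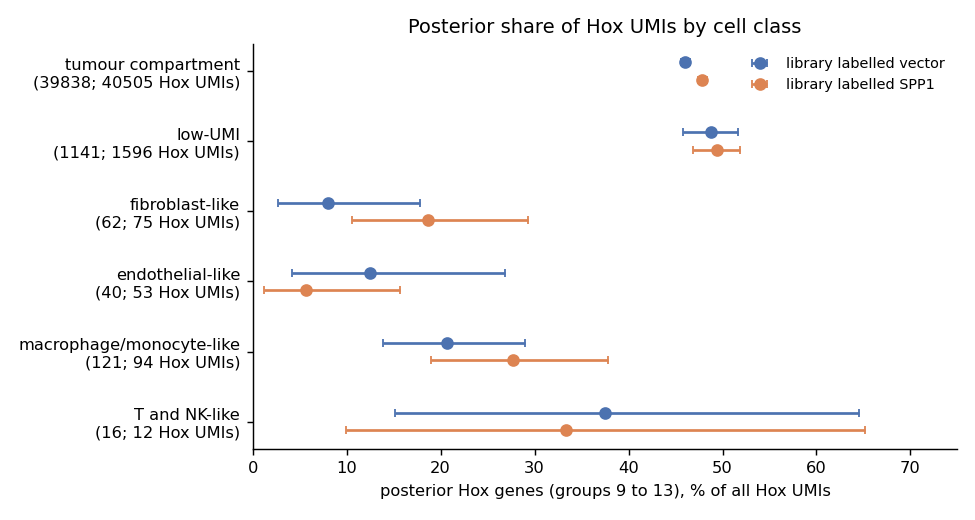
Posterior Hox genes (groups 9 to 13) as a percentage of all Hox UMIs of a class, by library, with 95% exact binomial intervals and the number of Hox UMIs under each class name. The tumour compartment lies at 46.0% and 47.8%, and the fibroblast-like, endothelial-like and macrophage/monocyte-like intervals lie below it in both libraries.

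Nearly every cell of the compartment held a Hox UMI: 90.3% and 91.4%, against 11.3% and 10.6% of macrophage/monocyte-like cells, whose medians were 7484 and 6911 UMIs per cell. With each cell thinned to 1000 UMIs these shares were 23.8% and 24.9% in the compartment (13 and 12 shallower cells left out) and 2.55% and 2.21% in macrophage/monocyte-like cells. A compartment cell held UMIs of 2.87 and 2.99 Hox genes on average, and at most 14 in either library. Thinned to 1000 UMIs the mean was 0.267 and 0.285, and thinned to 5000 it was 1.25 and 1.32. The number of Hox genes seen in a cell thus moved with its depth. At 5000 UMIs, pairs of Hox genes of 1 genomic cluster were seen in the same cell at a median of 1.04 and 1.07 times the number given by independence (19 pairs of genes over 5 CPM), and pairs from different clusters at 1.02 and 0.979 times (47 pairs). Genes of 1 cluster therefore shared cells about as often as genes of different chromosomes did, as a description over pairs that are not independent.

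Between the libraries no Hox gene of the compartment was called. A gene was called where the interval of its ratio excluded 1.5-fold, which 2.75% of all 20029 genes did (2.28% higher and 0.464% lower in the library labelled SPP1). Of 24 Hox genes compared, 8 had an interval above 0 on the log2 scale, 5 below and 11 across it, and 50.2% of all genes had an interval that excludes 0. The median absolute log2 ratio was 0.17 over the 21 Hox genes on in a library and 0.17 over all genes compared. Over the 10972 genes left by limits that drop the lowest and highest UMI counts it was 0.14. With its sign kept, the median log2 ratio was 0.11 over the Hox genes, 0.02 over all genes compared and 0.01 over those 10972. The median size of the Hox differences was thus that of all genes compared, but above that of the genes within those limits. Their signed median was also the higher, and none of this was tested.

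Among on genes Hoxb8 had the highest log2 ratio of the library labelled SPP1 over that labelled vector, 0.34 (0.10 to 0.59), followed by Hoxa11 with 0.29 (0.05 to 0.52) and Hoxb13 with 0.24 (−0.11 to 0.59). The ratio of Hoxb8 moved to 0.08 without 2 clusters, numbered 4 and 11, that came almost wholly (97.5% and 92.5% of cells) from the library labelled SPP1. It was 1.26, with an interval that holds 0, with cells thinned to 1000 UMIs. Hoxc13 had the lowest log2 ratio, −0.65 (−0.91 to −0.38), which was −0.38 with clusters weighted equally. Hoxa13 (−0.28) and Hoxb6 (−0.18, as was Hoxd8) came next, and Hoxb6 was −0.10 and Hoxd8 −0.07 with clusters weighted equally. The leading posterior genes Hoxa9 (0.22, 0.16 to 0.27), Hoxa10 (0.23) and Hoxc11 (0.17) were higher and Hoxb9 (−0.17) lower in the library labelled SPP1. Posterior genes thus did not share 1 direction: Hoxa13 and Hoxc13 were lower, Hoxb13 was not set apart from 0, and group 9 was split.

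**Figure D4:**
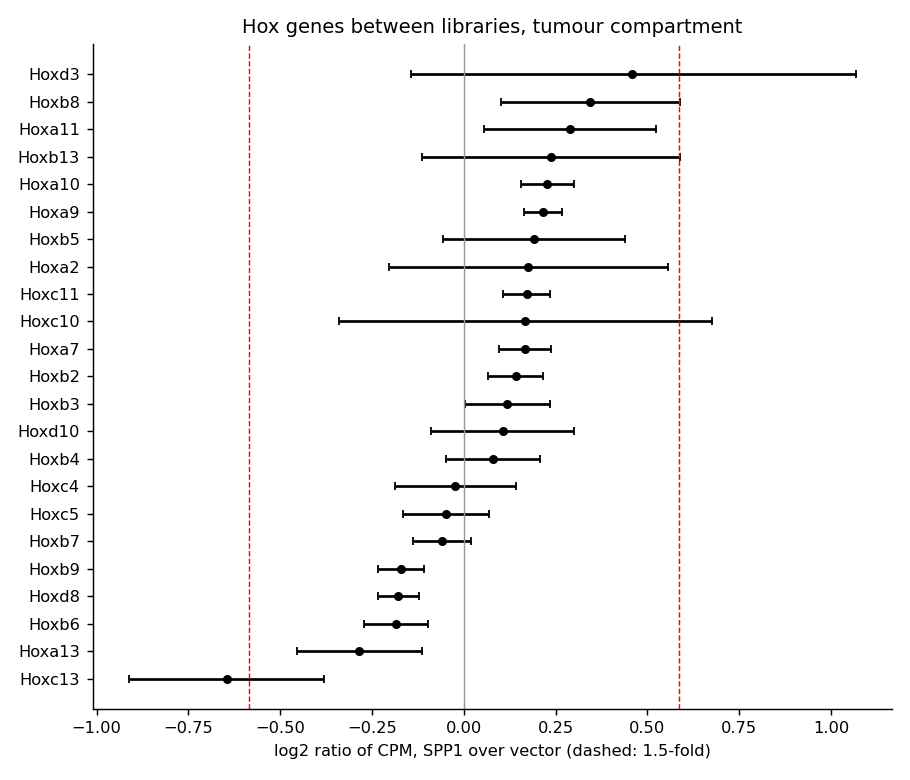
Log2 ratio of CPM in the tumour compartment, library labelled SPP1 over that labelled vector, for the Hox genes of groups 2 to 13 compared, with 95% conditional binomial intervals; dashed lines mark 1.5-fold either way. Hoxc13 lies lowest at −0.65, and every interval reaches inside the dashed lines.

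Hox genes also varied between clusters within the compartment, which were formed without them. Among clusters with at least 100 cells (12 and 14), summed Hox transcripts ran from 239 to 302 CPM and from 259 to 313, so that no cluster was without a Hox code. The posterior share ran from 42.3 to 55.7% and from 43.9 to 54.5%, highest in cluster 17, which is led by Hspa1b and other heat shock genes. For 15 of the 21 genes the highest and the lowest cluster had intervals that do not overlap in either library, and such pairs were chosen as extremes of 12 and 14 clusters. The same count was not made over all genes, so it does not set Hox genes apart. Over all 21 genes the fold between the extreme clusters was under 3 for 11 and 12 genes. The same cluster was highest in both libraries for 6 genes (Hoxa9, Hoxb6, Hoxb7, Hoxc4, Hoxd8 and Hoxd10).

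Hoxc4 had the largest spread over both libraries. It was highest in cluster 5, led by Ppm1n, Gm8801 and Muc13, with 8.87 and 9.93 CPM, and stood at 7.62 and 6.82 in cluster 0, led by the matrix genes Dpt, Ogn and Aspn. Its lowest level was 0.995 CPM (5 UMIs) in cluster 9 and 0.478 (2 UMIs) in cluster 12, so the fold was 8.92 (3.63 to 28.4) and 20.8 (5.53 to 175). It depended on the clustering: the fold was 7.27 and 4.37 at a resolution of 0.5 and 10.7 and 9.0 at a resolution of 2. Hoxd10 was highest in cluster 14, a mitotic cluster led by Cdc20 and Cenpa (5.77 and 6.78 CPM), and lowest in cluster 16, led by interferon-induced Ifit genes (0.991 and 1.19), a fold of 5.83 and 5.71. Hoxa9 was highest in the heat shock cluster 17 (70.6 and 76.5 CPM) and lowest in cluster 12, led by Slc39a1 and Actb (24.9 and 31.5), a fold of 2.84 and 2.43. Hoxb6 was highest in cluster 7, led by the mitotic genes Aspm, Ccnb1 and Ube2c (28.3 and 25.4 CPM), and lowest in cluster 13, led by Rgs4, Cdh19 and Tafa1 (9.49 and 9.25).

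Other wide spreads were not placed alike in the libraries. Hoxb3 ran from 2.13 CPM (cluster 12) to 13.2 (cluster 5) in the library labelled vector, 6.22-fold (2.75 to 17.4), and from 5.05 (cluster 17) to 13 (cluster 4) in the library labelled SPP1, 2.57-fold. Hoxb5 ran from 0.710 to 3.82, 5.39-fold, and from 0.910 to 3.95, 4.34-fold. Hoxc13 had no UMI in cluster 17 of the library labelled vector and was at least 4.69-fold higher in cluster 13 (5.0 CPM, against 3 counts).

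**Figure D5:**
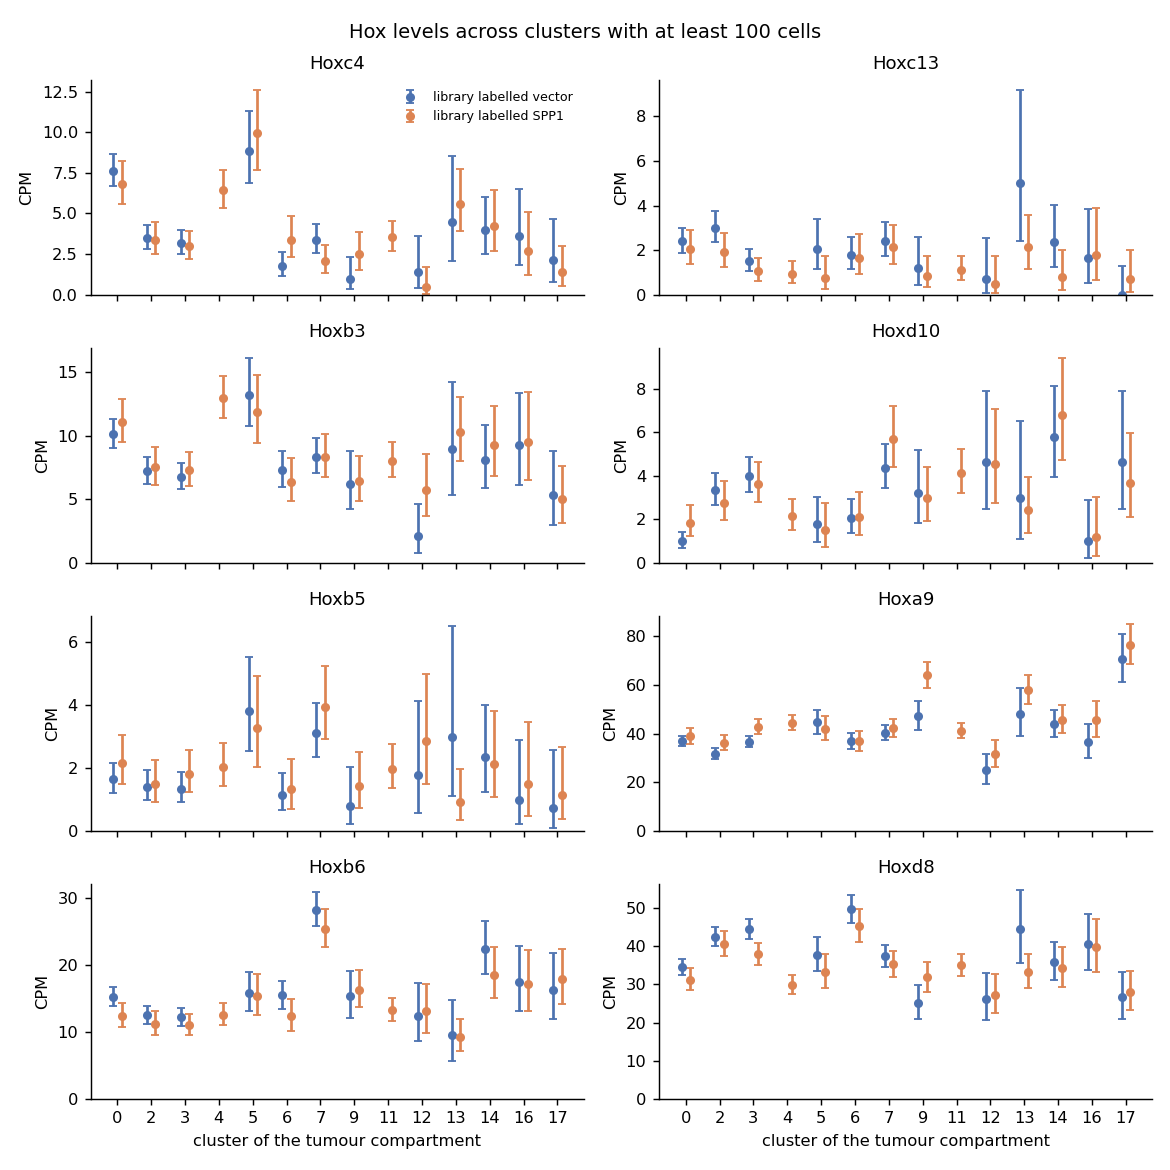
CPM of 8 Hox genes in each cluster of the tumour compartment with at least 100 cells in a library, with 95% Poisson intervals. Hoxc4 peaks in cluster 5 and Hoxa9 in cluster 17 in both libraries, and Hoxb6 in cluster 7.

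Genes that act with the Hox proteins were also present in the compartment. Beside the counts of genes on in the lists that follow, 22.6% of all genes and 51.4% of protein-coding genes were on. All 9 cofactors, the TALE homeobox proteins that bind DNA beside Hox proteins, were on, and none was called between the libraries. Meis2 stood at 197 and 169 CPM and Pbx3 at 87.7 and 75.6, and Pknox2 had the largest log2 ratio, −0.32. Of 21 chromatin regulators of Hox clusters, which place or read Polycomb and Trithorax marks, 20 were on and Cbx6 had no UMI. The highest was Psip1 with 382 and 345 CPM, and the Polycomb subunits Suz12 (195 and 171) and Ezh2 (175 and 173) followed. None of the regulators was called, and Eed had a log2 ratio of −0.27. Of the genes and noncoding RNAs beside or inside the clusters, 23 of 26 in the list were found, 16 were on and none was called. A further list of 29 gene models inside the clusters, with 14 compared, held 1 that was called, Gm11539. Hotair, the noncoding RNA of the Hoxc cluster between Hoxc11 and Hoxc12, stood at 15 and 16 CPM, and Hoxd3os1 at 18.0 and 17.9. Hotair had no UMI in fibroblast-like cells, which allows up to 6.49 and 7.63 CPM (3 counts), nor in endothelial-like cells, whose limits of 23.3 and 18.7 CPM exceed its level in the compartment.

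Retinoic acid is the signal that switches on anterior Hox genes in the embryo. Of its 13 genes 8 were on, and Crabp1, a retinoic acid binding protein, was the 1 gene called of the 81 compared over the lists other than that of further gene models: 87.3 and 144 CPM, a log2 ratio of 0.73 (0.69 to 0.76). It was 0.41, and not called, without clusters 4 and 11. Crabp2 stood at 255 and 230 CPM and Cyp26b1, which degrades retinoic acid, at 30.5 and 22.9 (log2 ratio −0.41). Of 27 transcription factors that mark the position of mesenchyme 15 were on, led by Prrx1 (365 and 327 CPM) and Twist2 (169 and 166). Tbx4, Tbx5, Hand2, Barx1 and Six2 had no UMI, and none of the list was called. Alx1 had a log2 ratio of −0.55 and Msx1 of 0.34. Over all protein-coding genes 51.4% were on, so 8 of 13 retinoid and 15 of 27 mesenchymal genes do not set those lists apart. Of 12 intestinal transcription factors and markers 2 were on, Gata6 among them (79.3 and 84.6 CPM), and Cdx2, the factor that sets the Hox code of the gut, and Krt20 had no UMI.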

How the data were processed

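The data are single-cell RNA sequencing of 2 tumours. The authors deposited UMI counts per gene and barcode with no normalization, as whole numbers with unequal totals show. Per the submitters' processing notes, Cell Ranger 2.1.1 and the build GRCm39 were used. For the annotation release, strand of counting, cell calling and removal of free RNA, the answer is not given in the sources used here. Barcodes under 300 genes, under 500 UMIs or over 15% mitochondrial UMIs were dropped, and doublets predicted per library by simulation (2 per cell, expected rate 6%, Otsu's threshold) were removed: 273 (1.92%) and 357 (2.56%). Counts scaled to 10000 per cell and logged were reduced to 30 principal components of 2000 variable genes, none of them a Hox gene, and clustered on 20 neighbours by the Leiden method (resolution 1). A cluster was named where at least 3 markers and 50% of a list stood at 10 CPM or more and at a log2 difference of at least 1. Clusters whose median UMI count lay under 50% of their library's median, and clusters holding the reference genes at 25% or more of the compartment's level beside host markers, were set aside. UMIs were summed per class and library. Poisson and binomial intervals were exact, ratios had conditional binomial intervals, and the ratio steps were tested on simulated data. Overlaps came from GENCODE vM21 and promoters from RefSeq, both of GRCm38 and not the files' GRCm39. Tools were Python 3.11.15, numpy 2.4.6, pandas 2.3.3, scipy 1.17.1, scikit-learn 1.9.0, leidenalg 0.10.2 and matplotlib 3.10.9. A few genes are not reported here, though counts and sums hold them. Otherwise named were all on Hox genes, in host classes the 5 highest and those above the reference genes, between libraries the 3 highest and 3 lowest log2 ratios, across clusters the 5 largest spreads, and up to 4 genes per list. Other Hox genes were added after their values were seen, Hoxd9, Hoxa9 and Hoxb6 across classes or clusters among them. The Hox genes, marker lists and context lists were chosen with earlier results of these data known. Alternatives covered the threshold, stricter cells, kept doublets, other resolutions, thinning and clusters of mostly 1 library. A replicate could not be left out.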

Additional observations from a re-analysis of the deposited data

Results flagged for a closer look

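Hox transcripts also appeared in cells that the comparisons do not use. Cells in clusters of low UMI count (2142 and 2124 cells, medians of 1536 and 1854 UMIs) held 263 and 260 summed Hox CPM, beside 277 and 285 in the tumour compartment. Their posterior share was 48.7% and 49.4%, and the reference genes stood at 101 to 118% and 95.8 to 123% of the compartment's level. Cells of clusters that held both compartment and host genes (283 and 254 cells) held 195 and 182 summed Hox CPM, with the reference genes at 51.9 to 70.4% and 51.7 to 69.0%. Both sets were well above the 17.6 CPM of macrophage/monocyte-like cells in each library.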

How the results depend on the processing

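Of the alternatives run, 52 of 61 values that answer a comparison stayed within the set limits. These values are counts, means and shares, which have no direction to turn. Of the single-gene ratios followed, that of Hoxb13 turned its sign in 1 of 11 alternatives. The count of Hox genes on was 12 at a threshold of 5 CPM against 20 at 1 CPM. Thinning cells to 1000 UMIs left 0 of the 4 Hox genes above background in fibroblast-like cells, 1 of 7 in endothelial-like cells (Hoxa7) and 1 of 2 in macrophage/monocyte-like cells (Hoxb4), with fewer UMIs by construction. Without the 3 cells richest in Hox UMIs these counts were 3 (without Hoxd8), 5 (without Hoxb6 and Hoxb7) and 2. Hox genes per compartment cell were 2.87 and 2.99 unthinned and 1.25 and 1.32 at 5000 UMIs, against 0.267 and 0.285 at 1000. Of the context genes, without the further gene models inside the clusters, 0 were called without the clusters of mostly 1 library, against 1, and Gm11539 was called in both. For single genes, Hoxb13 had a log2 ratio of −0.88 (−2.45 to 0.55) when thinned, against 0.24, and Hoxb8 ran from 0.07 to 1.26 over 11 alternatives, against 0.34. The number of Hox genes whose extreme clusters lay apart in both libraries was 14 at resolution 0.5 and 16 at 2, again with no count over all genes beside it. Leaving out shared barcodes and joining the low-UMI clusters to the compartment were added after seeing the data. No paired analysis was possible because each group holds 1 library, and no replicate could be left out. Depth limits the small host classes: 3 counts equal 167 and 70.5 CPM in pericyte or smooth muscle-like, 23.3 and 18.7 in endothelial-like, 9.58 and 15.7 in dendritic cell-like and 6.49 and 7.63 in fibroblast-like cells.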

Other observations

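In the tumour compartment a gene model inside the Hoxb cluster differed between the libraries more than any Hox gene compared did. Gm11539, a processed pseudogene between Hoxb13 and Hoxb9 that was chosen after its value was seen, stood at 6.18 CPM (889 UMIs) in the library labelled vector and 13.7 CPM (1952 UMIs) in the library labelled SPP1. The log2 ratio was 1.15 (1.04 to 1.27). It was 1.18 without the clusters of mostly 1 library, and in 12 of 12 clusters with at least 100 cells in both libraries the interval lay above 0 (log2 ratios of 0.84 to 2.23). These clusters are parts of the same libraries and not replicates, so they repeat 1 difference and add no support to it. The neighbours of Gm11539 did not share its ratio: Gm53 had a log2 ratio of −0.04, Hoxb9 of −0.17 and Hoxb13 of 0.24. Gm11539 was not confined to the compartment. It stood at 4.81 and 8.82 CPM in macrophage/monocyte-like cells (33 and 47 UMIs) and at 12.1 and 11.4 in T and NK-like cells (9 and 6 UMIs). Dendritic cell-like cells had 2 and 7 UMIs and fibroblast-like cells 0 and 4. Reads of a processed pseudogene can belong to its parent gene, so the values of Gm11539 are uncertain. Hotair, in the Hoxc cluster, was higher in the library labelled SPP1 in 8 of the same 12 clusters, with 0 intervals above 0.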
